A study of Mus musculus with 3 samples.

Results

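The cathepsins and legumain are proteases of the lysosome, the acidic compartment in which cells break down proteins taken up from outside or delivered from within. Most are cysteine proteases (Ctsb, Ctsc, Ctsh, Ctsk, Ctsl, Ctss, Ctsz and Lgmn), Ctsd is an aspartic protease and Ctsa is a serine carboxypeptidase. Lgmn, legumain, cuts after asparagine and activates cathepsins. In macrophages and dendritic cells (DCs) they digest engulfed material and trim antigens and the invariant chain Cd74, and when secreted they can act on extracellular matrix. The 10 genes were taken by symbol, all 10 were found, and they are 10 of the 31053 mouse genes counted in each library.

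The data were 3 droplet single-cell RNA-seq libraries, 1 per group. Co-Mac held bone marrow cells of C57/BL6 mice grown with the growth factor GM-CSF and left untreated on day 7. VD-Mac held cells of the same kind of culture given 1,25 dihydroxy-cholecalciferol, the active form of vitamin D3 (VD3), at 1 µM for 24 h from day 7. The hSTSG library held cells of human split-thickness skin grafts placed under the skin of wild-type C57BL/6J mice and taken out after 14 days, with 5 mice pooled and no map from cells to mice, and only mouse genes were counted. Collagenase digestion is described for the grafts alone, and GM-CSF was in the cultures alone, so tissue, digestion and GM-CSF cannot be told apart in any comparison of the graft with a culture.

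After filtering, 7257 of 7866 barcodes were kept in Co-Mac, 8825 of 9794 in VD-Mac and 2144 of 2644 in hSTSG. Their gene UMIs (unique molecules counted) summed to 132574308, 116461484 and 22646544, with medians of 15804, 12089 and 6637.5 per cell. Of the kept barcodes, 15 sequences occurred in both cultures, 3 in Co-Mac and hSTSG, and 6 in VD-Mac and hSTSG. Levels are counts summed over the cells of a group and scaled to all gene UMIs of those cells (CPM), so that 10000 CPM are 1% of the gene UMIs. These libraries count the 3′ end of a transcript once, so a CPM does not scale with gene length and genes can be set beside each other on it. With 1 library per group no test was possible and no difference has a replicate check. The 95% intervals given are exact (Poisson for levels, binomial for shares, conditional binomial for ratios) and cover counting error only.

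Cells were assigned to a type by marker genes, under a rule settled after the cells had been seen (described below). None of the 10 genes was a marker. The macrophage gate held 2113 cells of Co-Mac, 2193 of VD-Mac and 817 of hSTSG, with medians of 22240, 16474 and 11362 UMIs. In each of them 8 of the 10 macrophage markers had a median over cells above 0. Of 10 neutrophil markers, 2 had a median above 0 in the macrophages of each culture and 0 in graft macrophages. The set summed to 1685 CPM in Co-Mac, 1400.4 CPM in VD-Mac and 329 CPM in hSTSG, led by S100a8 at 926, 769 and 94.2 CPM. Their part in the results was not tested. The monocyte gate is not compared between the cultures, because its marker Ccr2 itself stood at 318 CPM in Co-Mac and 0.687 CPM in VD-Mac over all kept cells, and the gate held 593 and 40 cells. Of 6 monocyte markers, 2 (Ly6c2 and Ccr2) had a median above 0 in Co-Mac macrophages and 0 in VD-Mac and graft macrophages, with sums of 734, 97.3 and 279 CPM. The culture DC gate (3002 and 3784 cells) carried Ccr7, Fscn1 and Ccl22 but little Flt3 (5.08 and 1.74 CPM), and the 67 cells of the graft DC gate carried Ccr7, Fscn1 and Flt3 (225 CPM).

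In graft macrophages the 10 genes together made up 2.62% of all gene UMIs, against 0.628% in Co-Mac macrophages and 0.622% in VD-Mac macrophages. Per cell, the median share was 2.13% in graft macrophages, with a first quartile of 1.33% and an upper quartile of 3.05%. It was 0.738% in graft monocytes, 0.813% in graft neutrophils, 0.437% in graft fibroblasts, 0.346% in graft DCs and 0.0667% in graft T cells. Macrophages stood above the other 5 gates of 50 cells or more in the graft by this measure.

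Ctsl, an endopeptidase that degrades a broad range of proteins, was the most abundant of the 10 in graft macrophages at 7222 CPM (7173 to 7271). Fibroblasts followed at 1509.6 CPM and monocytes at 902 CPM, then neutrophils at 433 CPM. T cells stood at 140.3 CPM and DCs at 79.0 CPM. The intervals of neighbouring gates in this order did not overlap. Ctsb, which acts both as an endopeptidase and as a peptidyl-dipeptidase, reached 5503 CPM in macrophages, 1641 in neutrophils, 1366 in monocytes, 992 in fibroblasts, 245 in DCs and 191 in T cells. Lgmn was at 2709.6 CPM in macrophages, 648 in monocytes, 336 in DCs and 234 in fibroblasts, and its neutrophil (68.7) and T cell (54.8) levels had overlapping intervals.

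Ctss, the cathepsin known for cutting the invariant chain in antigen-presenting cells, followed the mononuclear phagocytes. It was at 4514 CPM in macrophages, 1981 in monocytes and 1014 in DCs. Neutrophils (146 CPM) and T cells (130.1 CPM) had overlapping intervals, and fibroblasts were lower at 48.6 CPM. Ctsc, which activates granule serine proteases of neutrophils and T cells, was at 734 CPM in macrophages, 505 in monocytes and 173 in DCs. Its levels in neutrophils (59.7 CPM) and T cells (58.6 CPM) did not differ beyond their intervals, and fibroblasts had 27.7 CPM.

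Ctsd and Ctsk did not peak in graft macrophages. Ctsd was at 3987 CPM in graft neutrophils (3884 to 4091) and 2593 CPM in macrophages (2564 to 2622), and it made up 52.8% of the UMIs of the 10 genes in neutrophils against 9.88% in macrophages. Monocytes had 495 CPM of Ctsd, T cells (268) and fibroblasts (267) had overlapping intervals, and DCs had 64.3 CPM. Ctsk, the collagen-degrading protease best known from osteoclasts, was at 514 CPM in fibroblasts (491 to 537) and 329 CPM in macrophages (319 to 340). In the other 4 gates it was below 10 CPM, from 3.16 in DCs to 9.72 in neutrophils, with overlapping intervals. Ctsk was thus shared by macrophages and fibroblasts in the graft.

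The 3 remaining genes were Ctsz, Ctsh and Ctsa. Ctsz, a carboxypeptidase, was at 1541 CPM in macrophages, with overlapping intervals for monocytes (1059.8) and DCs (1038) and for DCs and neutrophils (955), then fibroblasts at 283 and T cells at 79.0. Ctsh, an aminopeptidase, was level between macrophages (549 CPM) and fibroblasts (544 CPM), and between DCs (362 CPM) and monocytes (348 CPM). Neutrophils had 63.2 and T cells 15.1 CPM of Ctsh. Ctsa, which also protects the enzymes Neu1 and Glb1, was at 551 CPM in macrophages, 374 in monocytes, 187 in neutrophils, 97.4 in fibroblasts, 86.4 in DCs and 73.1 in T cells, and the intervals of the last 3 overlapped in turn.

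**Figure D1:**
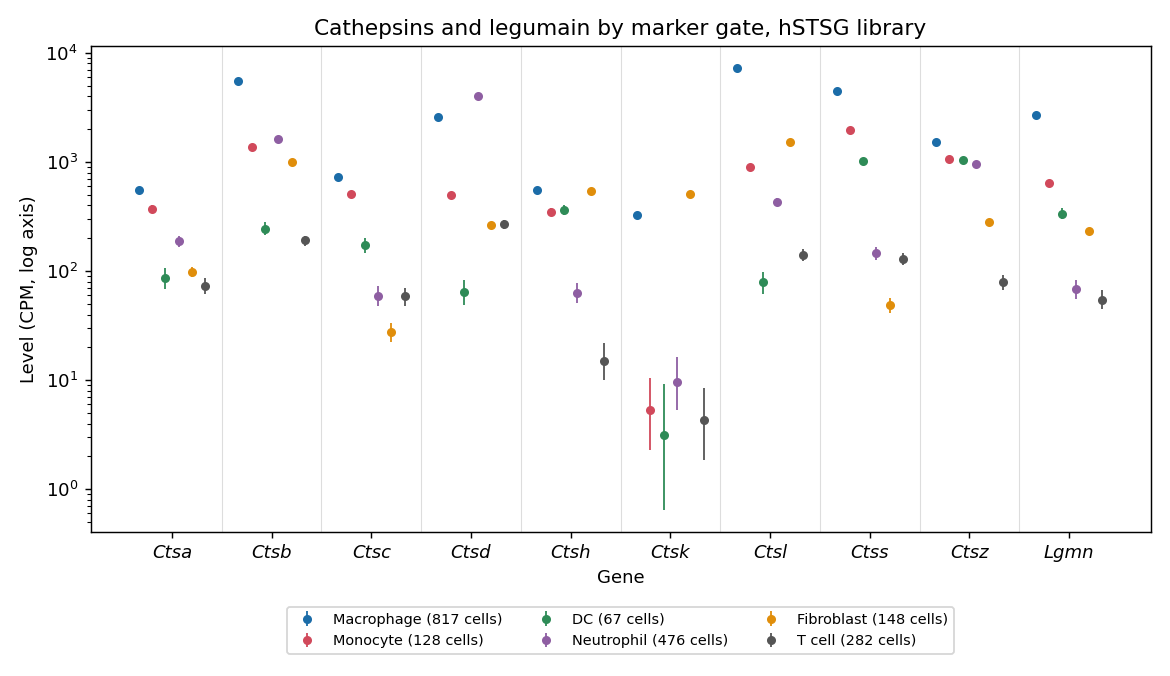
Level of each gene (CPM, log axis) in 6 marker gates of the hSTSG library, with points for the summed cells of a gate and bars for the exact 95% Poisson interval. Macrophages lie highest for 8 of the 10 genes, level with fibroblasts for Ctsh, while Ctsd is highest in neutrophils (3987 CPM) and Ctsk in fibroblasts (514 CPM).

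T cells served as the background cell type for the share of cells with at least 1 UMI after each cell was thinned to 2000 UMIs, and 58 macrophages, 136 of 476 neutrophils, 2 T cells, 6 fibroblasts and 3 DCs were too shallow. Ctsl was found in 93.9% of graft macrophages (92.0 to 95.5) and 15.0% of T cells (11.0 to 19.7). In unthinned cells, with medians of 11362 and 5636 UMIs, 98.0% and 37.6% had a Ctsl UMI. Lgmn was found in 90.0% of macrophages against 7.50% of T cells (unthinned 97.8% and 15.6%). Ctsk was found in 19.8% of macrophages and 53.5% of fibroblasts against 1.07% of T cells (unthinned 44.6%, 89.9% and 2.84%). The T cell share was at most 33.2%, for Ctsd. In fibroblasts, Ctsc (4.23%), Ctss (5.63%) and Ctsa (12.7%) lay at or below the T cell shares of 8.21%, 16.8% and 12.9%. So did Ctsd (4.69%), Ctsa (10.9%) and Ctsk (0 of 64 thinned cells) in graft DCs. These shares were not above the background, which does not show that the genes are absent. T cells themselves had more Ctsd (268 CPM) than DCs (64.3 CPM), so they are not a blank for it. Intervals included the T cell share for Ctsc in neutrophils (8.24%), Ctsl in DCs (15.6%), Ctsk in monocytes (1.56%) and Ctsd in fibroblasts (40.8%). T cells can express Ctsc themselves, and free RNA was not told apart from expression in them.

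The first comparison asked how macrophages from the graft differed from untreated culture macrophages. Of the 10 genes, 6 were at least 2-fold higher in graft macrophages with at least 10 CPM in the higher group, and 0 were lower. Over all genes that could be called, 17.9% were higher and 19.9% lower by the same rule. Lgmn stood at 114 CPM in Co-Mac and 2709.6 CPM in hSTSG, a 23.9-fold difference (log2 ratio 4.58, interval 4.54 to 4.62). Ctsl was at 322 and 7222 CPM, 22.4-fold (4.49, 4.47 to 4.51), and Ctsb at 769.8 and 5503 CPM, 7.15-fold (2.84, 2.82 to 2.86). These 3 genes had the largest graft levels in relation to culture apart from Ctsk, which went from 3.23 to 329 CPM, a 102-fold difference resting on 182 UMIs in Co-Mac (log2 ratio 6.67, from 6.00 to 7.59 under the alternatives). Ctss was 4.04-fold and Ctsa 3.05-fold higher.

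The other 4 genes stayed within 2-fold. The log2 ratio was 0.72 for Ctsd, 0.60 for Ctsh and 0.58 for Ctsc. It was 0.20 for Ctsz (1346 and 1541 CPM), which changed sign when each cell counted equally. The median log2 ratio of the 10 genes was 1.81, beside −0.12 over all genes, so that setting the latter to 0 moves each ratio by that much. The make-up of the family therefore differed. In Co-Mac macrophages Ctsd (25.1%), Ctsz (21.4%) and Ctss (17.8%) led the UMIs of the 10 genes, while in graft macrophages Ctsl (27.5%), Ctsb (21.0%) and Ctss (17.2%) led. Ctsl was 5.12% of them in Co-Mac.

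Against VD3-treated macrophages, 7 of the 10 genes were at least 2-fold higher in the graft and 0 lower, beside 20.7% and 20.1% of all genes. The added gene was Ctsc, at 222 CPM in VD-Mac and 734 CPM in hSTSG (3.31-fold). Both comparisons share the graft library. Ctsl was 21.1-fold, Lgmn 20.0-fold, Ctsb 7.13-fold, Ctss 6.49-fold and Ctsa 2.74-fold higher than in VD-Mac. Ctsk rested on 13 UMIs in VD-Mac (log2 ratio 10.04, interval 9.26 to 10.95). For Ctsl, Ctsb and Lgmn the graft thus stood about as far from VD-Mac as from Co-Mac. Restricting the graft cells to the Trem2-type macrophages described further on gave 25.5-fold for Ctsl, 16.2-fold for Lgmn and 7.19-fold for Ctsb over VD-Mac. A 5% limit on mitochondrial UMIs left 483 macrophages in each culture and 621 of 817 in the graft. With this limit Ctsd passed 2-fold too (log2 ratio 1.05 over Co-Mac and 1.02 over VD-Mac), while with each cell counted equally it was 0.11 and 0.24. Under the alternatives the log2 ratio over VD-Mac ran from 4.21 to 5.08 for Lgmn and from 2.72 to 3.47 for Ctsb.

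**Figure D2:**
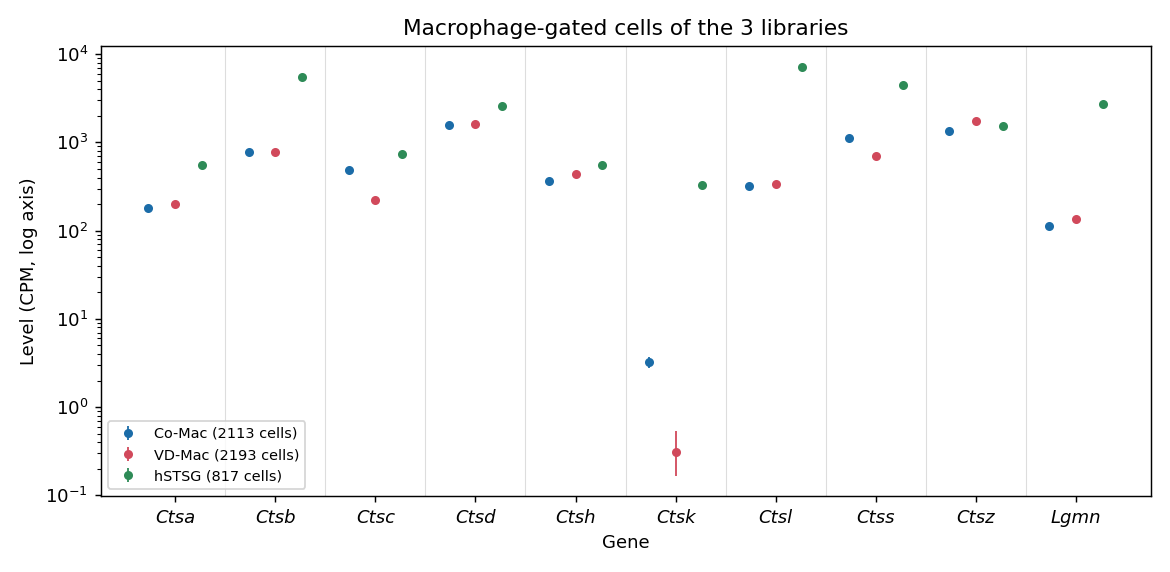
Level of each gene (CPM, log axis) in macrophage-gated cells of Co-Mac, VD-Mac and hSTSG, with points for the summed cells and bars for the exact 95% Poisson interval. The graft lies far above both cultures for Ctsb, Ctsk, Ctsl, Ctss and Lgmn, and the 3 libraries lie close together for Ctsz (1346, 1771 and 1541 CPM).

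In the DC gate 1 of the 10 genes was at least 2-fold higher in hSTSG than in Co-Mac and 2 were lower, beside 24.5% and 18.1% of all genes. Lgmn was higher (71.2 and 336 CPM, 4.72-fold), while Ctsd (274 and 64.3 CPM, 4.27-fold) and Ctsh (768 and 362 CPM, 2.12-fold) were lower in the graft. Ctss (823 and 1014 CPM) and Ctsz (890 and 1038 CPM) were near each other, and the 67 graft DCs limit these values. Ctsd rested on 61 UMIs in graft DCs (log2 ratio −2.09, interval −2.48 to −1.73), and its share there was not above that of T cells. How much of that level was free RNA was not tested. The interval of Ctsh (log2 ratio −1.24 to −0.93) includes 2-fold. The DC markers of the 2 gates differed, as Flt3 did above, and their part was not tested.

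The second question was how the family differed with VD3 in culture. Over all kept cells 1 of the 10 genes, Ctsc, was at least 2-fold lower in VD-Mac and 0 were higher, beside 4.63% of all genes lower and 2.16% higher. Ctsc stood at 362 CPM (359 to 366) in Co-Mac and 145 CPM (142 to 147) in VD-Mac, 2.51-fold lower. The make-up of the kept cells differed too, with macrophages at 29.1% and 24.8%, monocytes at 8.17% and 0.453% and unassigned cells at 14.7% and 22.1%. Ctss, at 890.3 and 508 CPM, was 1.75-fold lower and did not pass. Lgmn (83.0 and 116 CPM) was 1.40-fold and Ctsz (1084 and 1258 CPM) 1.16-fold higher, Ctsz falling to −0.01 on the log2 scale with a 5% mitochondrial limit. The other members apart from Ctsk differed by at most 1.21-fold, and Ctsa, Ctsh and Ctsl changed sign under an alternative. The median log2 ratio of the 9 members at 10 CPM or more was −0.08, beside −0.10 over all genes. Ctsk was at 1.97 and 0.309 CPM, below the level rule in both.

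Within the macrophage gate Ctsc was again the 1 gene of the 10 that passed (0 higher, 1 lower), beside 5.14% of all genes lower and 3.32% higher. It was at 491 CPM in Co-Mac and 222 CPM in VD-Mac, 2.21-fold lower (log2 ratio −1.15, interval −1.18 to −1.11). The monocyte marker Ccr2 was at 526 CPM in Co-Mac and 1.06 CPM in VD-Mac macrophages, Co-Mac monocytes had 665 CPM of Ctsc, and the part of monocyte-like cells was not tested. Ctss was 1.61-fold lower (1117 and 695 CPM, log2 ratio −0.68), and Ctsz was 1.32-fold higher (1346 and 1771 CPM, 0.40). Ctsh (0.28), Lgmn (0.26), Ctsa (0.15), Ctsl (0.09), Ctsd (0.05) and Ctsb (0.00) had smaller log2 ratios. With the 5% mitochondrial limit Lgmn went to −0.37 and Ctsb to −0.28, and with each cell counted equally Ctsd went to −0.13 and Ctsl just below 0, so these genes are given no direction. Over the 9 members at 10 CPM or more the median log2 ratio was 0.09, beside −0.09 over all genes.

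In the DC gate 0 of the 10 genes passed 2-fold in either direction in the main analysis, beside 2.06% of all genes higher and 2.99% lower. Ctss was just inside the limit at 823 CPM in Co-Mac and 414 CPM in VD-Mac, 1.99-fold lower, and passed when the median log2 ratio was set to 0. Ctsc was 1.83-fold lower (158 and 86.3 CPM), passing with the 5% mitochondrial limit, and Ctsh 1.43-fold lower (768 and 539 CPM). Lgmn was 1.76-fold higher (71.2 and 125 CPM). Ctsc and Ctss were thus lower in VD-Mac in both gates, while Ctsh was on opposite sides of 0. The difference between the gates was not tested. Markers in the DC gate differed too, with Ccl22 at 2957 CPM in Co-Mac and 1450.0 CPM in VD-Mac, the 6 monocyte markers at 119.7 and 29.8 CPM and Trem2 at 47.7 and 114 CPM, and their part was not tested.

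**Figure D3:**
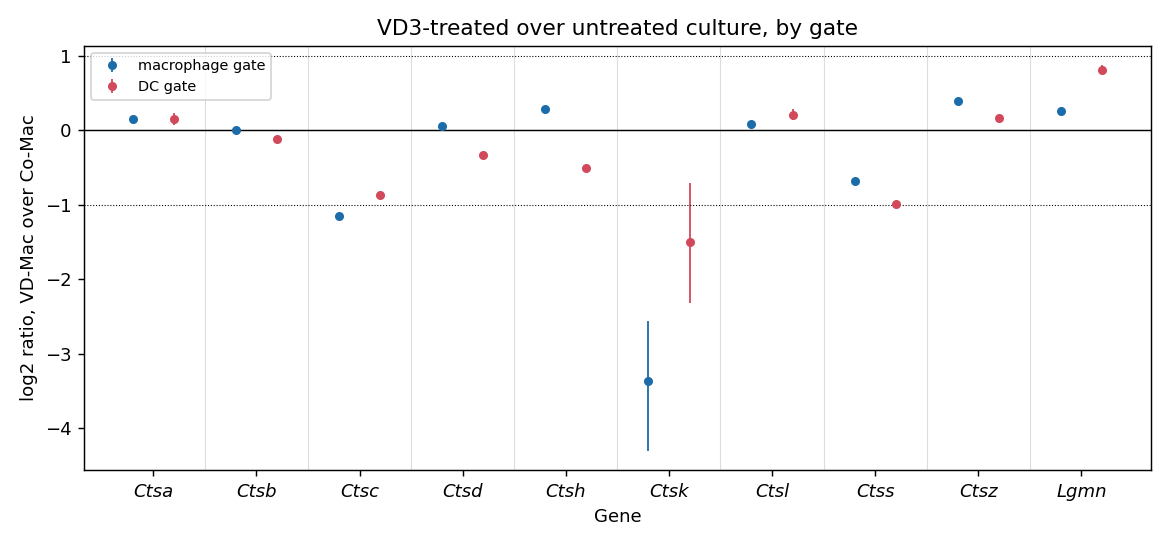
Log2 ratio of VD-Mac over Co-Mac for each gene in the macrophage gate and the DC gate, with exact 95% conditional binomial intervals and dotted lines at 2-fold. Ctsc and Ctss lie below 0 in both gates (−1.15 and −0.68 in macrophages), and Ctsk is below 10 CPM in each.

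Cycling cells, those with at least 3 of 7 cell cycle markers, made up 954 of the culture macrophages in Co-Mac and 955 in VD-Mac. In Co-Mac they had lower levels of Ctsl (232 against 450.3 CPM in the other 1159 macrophages) and Ctsd (1141 and 2203 CPM). Lgmn (83.7 and 156 CPM), Ctsb (577 and 1046 CPM) and Ctss (884 and 1451 CPM) were lower too. Of the 9 members at 10 CPM or more, 0 passed 2-fold in either culture. Over all genes, 449 of 7757 were higher and 53 lower in cycling cells of Co-Mac, and 404 of 7647 and 34 in VD-Mac. Ctsc was at 524 CPM in cycling and 444 CPM in the other cells. In VD-Mac the log2 ratios of cycling over other macrophages were nearer 0, at −0.54 for Ctsl, −0.71 for Ctsd, −0.29 for Lgmn and −0.52 for Ctsb (−0.96, −0.95, −0.90 and −0.86 in Co-Mac). For Ctsc it was 0.06 with an interval that includes 0 (0.24 in Co-Mac). Ctsh was further from 0 in VD-Mac, at −0.27 (−0.03 in Co-Mac, with an interval that includes 0). Cycling cells were deeper, with medians of 28672 against 19248 UMIs in Co-Mac and 22151 against 14079 in VD-Mac. In Co-Mac they also had more Ccr2 (598 and 424 CPM) and less C1qa (244 and 364 CPM) and Mrc1 (91.4 and 147 CPM), while in VD-Mac C1qa was at 738 CPM in cycling and 579 CPM in the other cells, and the part of these was not tested. The VD3 ratio of Ctsc was −1.21 in cycling and −1.03 in the other macrophages, and that of Ctss was −0.50 and −0.89 (log2). In cycling cells Lgmn was 1.47-fold higher in VD-Mac, and in the others it was 1.04-fold lower, with an interval that includes 0 on the log2 scale (−0.12 to 0.02).

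Graft macrophages were split by markers of a Trem2 state (such as Trem2, Gpnmb and Spp1) and a Cd163 state (such as Cd163, Mrc1 and Lyve1), both ranges on a score and not separate types. The Trem2 type held 464 cells, the Cd163 type 232 and neither 121, and 173 of the 817 cells lay within 0.2 score units of the cut. Ctsk was 479 CPM in Trem2-type and 50.1 CPM in Cd163-type cells, 9.55-fold higher by summed UMIs. In cells thinned to 2000 UMIs the difference was smaller, with means of 0.718 and 0.130 Ctsk UMIs per cell. Ctss (5423 and 2809 CPM, 1.93-fold), Ctsl (8727 and 4910.3 CPM, 1.78-fold) and Ctsd (3056 and 2012 CPM, 1.52-fold) were on the same side. So was Ctsz (1640 and 1390 CPM). The thinned means of Ctsl were closer, at 15.2 and 11.1 UMIs, and 95.8% of Trem2-type and 98.6% of Cd163-type cells had a Ctsl UMI. For Ctsd the thinned means were 4.46 and 3.01 UMIs. Of the 10 genes, Ctsk was the 1 that passed 2-fold, beside 287 higher and 473 lower of 7566 genes. Lgmn was on the other side, at 2201 CPM in Trem2-type and 4075 CPM in Cd163-type cells, 1.85-fold lower, as was Ctsc (645 and 944 CPM, 1.46-fold lower). Ctsa differed by less than its interval (564 and 560.5 CPM), and Ctsb (5551 and 6218 CPM) and Ctsh (545 and 613 CPM) were slightly lower in the Trem2 type. By summed UMIs, cells of neither type had less than both types of each gene but Ctsc, with Ctsl at 1974 CPM, Ctsb at 2047 CPM and Ctsd at 429 CPM. In cells thinned to 2000 UMIs, Ctss had a mean of 5.38 UMIs in neither, 5.29 in the Cd163 type and 9.76 in the Trem2 type. Cells of neither type had a median of 5829 UMIs, against 13581.5 in the Trem2 type and 11643 in the Cd163 type. Ccr2 was at 161 CPM (74.3 and 83.7 in the types), Plac8 at 256 CPM (101.3 and 99.4), Vdr at 179 CPM (30.8 and 44.9) and C1qa at 1302 CPM (1931 and 3212), and the part of depth and of these markers was not tested. In the cultures the macrophages fell in the Trem2 type (2046 and 1948 cells) or in neither, so the split was made in the graft alone.

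Ordering the 817 cells by the difference of the 2 scores and cutting them into 4 bins of 205 or 204 cells gave levels in steps. From the Cd163 end to the Trem2 end Lgmn went from 4177 through 2912 and 2470 to 1774 CPM, and Ctsk from 48.8 through 84.7 and 170 to 750.5 CPM. Ctss went from 2646 through 3501 and 5097 to 5966 CPM. Ctsl (4956, 4405, 6032 and 11049 CPM) and Ctsd (1976, 1477, 2546 and 3664 CPM) were lowest in the second bin and highest in the last. Across the 759 thinned macrophages Lgmn ranked with Mrc1 (Spearman rho 0.581) and not with Trem2 (−0.0105), whereas Ctsd ranked with Gpnmb (0.447) and Trem2 (0.429). Ctsl had positive rho with markers of both states, at 0.377 with Gpnmb, 0.269 with Mrc1, 0.252 with Trem2 and 0.127 with Cd163. Ctsb ranked with Ctsl (0.537) and Lgmn (0.505), and Ctsc had rho from −0.0760 to 0.122 with the 8 other members included (Ctsk was not). The rho values are at equal depth and the bins are not, and both describe cells of 1 library.

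**Figure D4:**
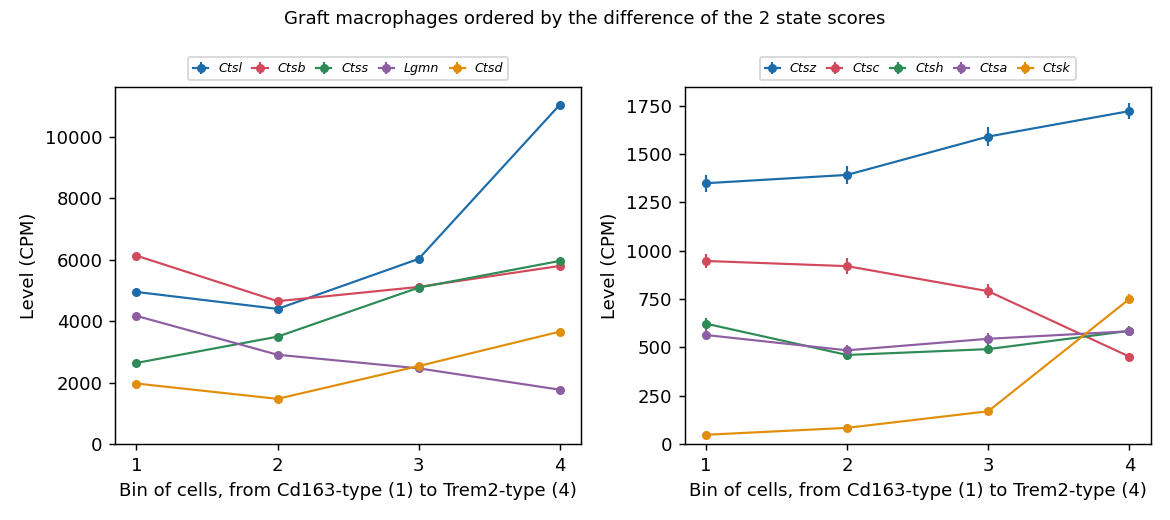
Level of the 10 genes (CPM) in 4 bins of graft macrophages ordered from the Cd163-type to the Trem2-type end of the score difference, with exact 95% Poisson intervals. Ctsk rises from 48.8 to 750.5 CPM and Lgmn falls from 4177 to 1774 CPM along the order.

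Other genes of the pathway were taken from 3 lists. Of 11 other lysosomal proteases, 7 were measured at 10 CPM in graft or Co-Mac macrophages, and 5 were higher in the graft and 1 lower, with a median log2 ratio of 1.17 beside −0.12 over all genes, of which 17.9% were higher and 19.9% lower. Against VD-Mac 4 of 7 were higher and 1 lower, beside 20.7% and 20.1% of all genes. Scpep1, a serine carboxypeptidase, was 26.5 and 190 CPM, and Tpp1, a tripeptidyl peptidase, was 90.7 and 239 CPM. Napsa, an aspartic protease, was the lower one at 513 CPM in Co-Mac and 47.2 CPM in hSTSG. Between the cultures 0 of 7 passed in macrophages, with a median of −0.03 beside −0.09. Over all kept cells 1 of 8 was lower in VD-Mac and 0 higher, beside 4.63% and 2.16% of all genes. It was Ctsg, with 4076 UMIs in Co-Mac and 1688 in VD-Mac. These are raw counts from 132574308 and 116461484 kept UMIs, so their plain ratio is larger than the ratio of the CPM. The neutrophil precursor marker Elane was at 30.0 CPM in Co-Mac and 12.3 CPM in VD-Mac over all kept cells, and the part of the cell mix was not tested. In the DC gate Tpp1 was higher in VD-Mac (40.5 and 93.4 CPM).

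Of 10 protease inhibitors, 4 were measured in macrophages, 1 higher and 2 lower in the graft than in Co-Mac (median log2 ratio −0.62), and 2 higher and 2 lower than in VD-Mac, too few genes to set against the shares over all genes. Between the cultures 0 of 4 passed in the macrophage gate, with a median of −0.40. Over all kept cells, of 7 measured, Stfa1 (32.4 CPM in Co-Mac and 77.9 CPM in VD-Mac) and Stfa2 (9.90 and 25.5 CPM) were higher in VD-Mac and Serpinb1a (50.7 and 5.42 CPM) lower, beside 2.16% and 4.63% of all genes. The mix of cells differed, with the neutrophil gate at 4.30% in Co-Mac and 6.69% in VD-Mac. The neutrophil precursor gate was at 1.61% and 2.45%, and the part of this mix was not tested. In cycling macrophages Stfa1 was higher and Serpinb1a lower, of 6, beside 256 higher and 403 lower of 7915 genes. The secreted cystatin Cst3 was the most abundant in Co-Mac and was lower in the graft, at 4667 CPM in Co-Mac, 3718 in VD-Mac and 1448 in hSTSG. Serpinb6a was higher there (51.4, 37.0 and 256 CPM), and Cstb, a cytosolic cystatin, was at 1304, 689 and 1772 CPM. In graft macrophages the summed level of the 10 proteases thus stood beside less Cst3 and more Serpinb6a and Cstb than in culture macrophages. Cstb was within 2-fold of its Co-Mac level. In the culture DC gate the elastase inhibitor Serpinb1a was at 55.4 CPM in Co-Mac and 1.79 CPM in VD-Mac.

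Of 16 partners, sorting receptors and regulators, 15 were matched and all of these measured in macrophages, with 5 higher in the graft than in Co-Mac and 2 lower (median log2 ratio 0.83), and 3 higher and 1 lower than in VD-Mac. The 3 of 15 lie near the 20.7% of all genes that were higher over VD-Mac, and the 5 and 2 stand beside 17.9% and 19.9% over Co-Mac. Grn (424 and 1108 CPM), Glb1 (18.8 and 50.6 CPM), the sorting receptor Igf2r (27.9 and 64.9 CPM) and the membrane protein Lamp1 (626 and 1359 CPM) were higher, as was Gnptg (8.52 and 17.1 CPM), just past the limit. Tfeb, a regulator of lysosomal genes, was lower (23.3 and 7.75 CPM), as was Sort1. Psap was the most abundant of the list in graft macrophages at 4828 CPM. In VD-Mac macrophages Igf2r was the 1 gene of 15 past 2-fold (median of the list −0.22), near the shares over all genes (5.14% lower, 3.32% higher), at 8.28 CPM against 27.9 CPM in Co-Mac.

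Over 15 groups of library and gate with 50 cells or more, P2rx7, an ATP-gated ion channel, had the pattern most like the mean of the 10 genes (Pearson r 0.946 on log2 CPM among 6007 genes). Tubb6 (0.914), Snx30 (0.897), Acp2 (0.896) and Rab11fip5 (0.890) followed. The search took genes with 50 CPM or more in at least 1 group. P2rx7 (57.7 CPM), Snx30 (68.2), Acp2 (92.4) and Rab11fip5 (62.5) reached this in graft macrophages alone. The 10 genes together were also most abundant there, so the filter favours such matches. P2rx7 was at 26.0 CPM in graft monocytes and at most 17.1 CPM elsewhere, beside 10 CPM added before the log. For 9 single members the most alike genes are given. They were Rnase4 for Ctsk (0.990), Atp6ap1 for Ctsa (0.965), Aif1 for Ctss (0.949) and P2rx7 for Ctsl (0.921). Next came Metrnl for Lgmn (0.920), Plin2 for Ctsd (0.917), Fcgr1 for Ctsc (0.915), Lamp1 for Ctsz (0.907) and Vwa5a for Ctsh (0.884). The groups share libraries and include the culture neutrophil gates and the Co-Mac monocyte gate, Fcgr1 is a macrophage marker of the gates, and no p is given.

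The 10 genes lie on 7 chromosomes (mouse GENCODE, build GRCm38, matched by Ensembl identifier). Ctsk (chr3:95499256-95509362) and Ctss (chr3:95526786-95556403) are neighbours on the same strand, 17423 bases apart. Ctsl (chr13:64359337-64370890, minus strand) has a row of placental cathepsins of like sequence, of which 1 UMI in all 3 libraries was counted, in Cts8. Ctsb lies at chr14:63122462-63145923 and Lgmn at chr12:102394084-102439813.

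RefSeq promoters (build GRCm38.p6, 300 bases around the start) were found for 8 of the 10 genes, with 2 each for Ctsa and Lgmn. The E-box CACGTG, which reads the same on both strands, was in at least 1 promoter of 4 of the 8 (Ctsa, Ctsd, Ctsl and Lgmn), while 7.15% of all 32851 promoters and 8.09% of 27025 genes held it. These windows lie around RefSeq starts. For 7 of the 8 genes a window holds the GENCODE start, and in 1 of them, Ctsd, that window held the E-box. The windows of Ctsl, Lgmn and Ctsa with an E-box lie inside the GENCODE gene. The promoters of the 3 genes with the largest graft ratios among those matched are shown, with the E-box in capitals. Ctsl (chr13:64370471-64370770, minus strand) held 1, Lgmn (chr12:102439043-102439342, minus strand) held 1, and Ctsk (chr3:95498960-95499259, plus strand) held 0. The other Lgmn window held 0.
Ctsl: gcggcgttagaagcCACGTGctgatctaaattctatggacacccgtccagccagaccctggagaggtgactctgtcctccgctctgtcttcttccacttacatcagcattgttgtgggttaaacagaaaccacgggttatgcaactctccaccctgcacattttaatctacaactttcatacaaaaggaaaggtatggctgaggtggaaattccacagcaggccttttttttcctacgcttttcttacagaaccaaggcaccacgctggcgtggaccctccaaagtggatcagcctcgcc
Lgmn: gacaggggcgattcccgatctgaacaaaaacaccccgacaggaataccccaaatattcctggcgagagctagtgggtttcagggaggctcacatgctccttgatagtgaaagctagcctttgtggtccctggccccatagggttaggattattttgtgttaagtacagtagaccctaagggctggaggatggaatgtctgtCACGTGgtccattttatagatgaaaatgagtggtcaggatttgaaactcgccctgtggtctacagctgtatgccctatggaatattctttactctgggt
Ctsk: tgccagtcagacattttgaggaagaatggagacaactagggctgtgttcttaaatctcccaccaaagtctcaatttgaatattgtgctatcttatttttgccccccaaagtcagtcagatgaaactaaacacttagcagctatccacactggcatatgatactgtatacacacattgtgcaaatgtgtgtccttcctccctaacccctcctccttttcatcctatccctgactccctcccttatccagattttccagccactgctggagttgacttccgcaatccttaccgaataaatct
A match of these letters describes the sequence and is not a binding site.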

How the data were processed

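The authors deposited raw UMI counts per gene and barcode for 3 libraries (10x 3′ chemistry). The file headers name Cell Ranger 3.1.0, and the submitters' processing notes name Seurat 3.1.1 and build mm9, while the study's methods name a human build. The gene identifiers in the files are mouse Ensembl identifiers, and coordinates here come from GRCm38. Hashtag rows were not used, as no map from tags to mice was found.

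Barcodes with at least 300 genes, under 100000 gene UMIs and under 10% mitochondrial UMIs were kept. A cell was assigned by its best marker score, the mean of log2(1 + UMIs per 10000) with each marker capped at 2, over sets of which it held 3 or more markers. S100a8 and S100a9 were left out of the neutrophil set. This departs from the marker lists as first written, and the cap and the omission were settled after the cells had been seen, when an uncapped and a capped rule with both genes had placed macrophage-like culture cells in the neutrophil gate. All 3 rules are compared in the closing section. The macrophage gate had 28 cells in hSTSG, 183 in Co-Mac and 91 in VD-Mac within 20% of the next gate. Doublet-like cells, where another lineage's set reached 50% of the best score, were 271, 257 and 76 of the kept cells of Co-Mac, VD-Mac and hSTSG and were kept in the main values.

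UMIs were summed over cells. A gene was called where it differed at least 2-fold with at least 10 CPM in the higher group. Members and lists were chosen with earlier results of these data known. Named genes were all members, list genes past the fold or most abundant, and the genes most alike in log2(CPM + 10), of which 1 is not reported here. Ifi30 was not matched by symbol. Calls and intervals were tested on simulated data. Analyses used Python 3.11.15 with numpy 2.4.6, scipy 1.17.1, pandas 2.3.3 and matplotlib 3.10.9.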

Additional observations from a re-analysis of the deposited data

Results flagged for a closer look

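The VD-Mac over Co-Mac log2 ratio of Ctsh was 0.28 in the macrophage gate and −0.51 in the DC gate, with counting intervals on opposite sides of 0. The same held for Ctsd, at 0.05 in the macrophage gate and −0.33 in the DC gate, though with each cell counted equally the macrophage value was −0.13. Each gate has 1 library per group, and the difference between the gates was not tested. The hSTSG library also held 1195935 UMIs of hashtag antibodies, which no comparison here used, and the cultures held 0.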

How the results depend on the processing

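In the 4 comparisons of all kept cells and macrophages the called members of the main analysis were called under each alternative run, and 0 called values changed sign. With 1.5-fold in place of 2-fold, 2 members were called for VD-Mac over Co-Mac in all kept cells and 2 in the macrophage gate, Ctss joining Ctsc. With no minimum level the counts were also 2 and 2, Ctsk joining Ctsc. The graft comparisons gave 6 to 8 members over Co-Mac and 7 to 8 over VD-Mac. The 3 gate alternatives chosen after seeing the data (S100a8 and S100a9 counted, no cap on a marker, macrophage and monocyte gates together) gave 1, 6 and 7 members for the 3 macrophage comparisons, as in the main analysis. In each of the 4 comparisons the largest single move of a log2 ratio came with the 5% mitochondrial limit. That limit cut culture macrophages from 2113 and 2193 to 483 and 483, and graft macrophages from 817 to 621. The log2 ratio of Ctsc ranged from −1.41 to −1.06 for VD-Mac over Co-Mac in macrophages, and Ctsl from 4.30 to 4.97 for hSTSG over Co-Mac. Wider ranges included, for hSTSG over Co-Mac, Ctsk (6.00 to 7.59) and Ctsd (0.11 to 1.05), and over VD-Mac Lgmn (4.21 to 5.08), Ctsd (0.24 to 1.02) and Ctsb (2.72 to 3.47). For VD-Mac over Co-Mac in macrophages Lgmn ran from −0.37 to 0.45. Over all 10 genes 16 of 350 log2 ratios changed sign, none of them a called one (Ctsa, Ctsb, Ctsd, Ctsh, Ctsl, Ctsz and Lgmn). The DC gate was run under the same alternatives after seeing the data, without the joined gates. For VD-Mac over Co-Mac 0 members were called in the main analysis and up to 3 under an alternative: Ctsc at the 5% limit, Ctss with the median set to 0, Ctsc, Ctss and Lgmn at 1.5-fold, and Ctsk with no minimum level. For hSTSG over Co-Mac the 3 called members stayed, and 3 to 5 were called, Ctsa, Ctsl or Ctsk joining. As given above, the shares of Ctsa and Ctsk in graft DCs were not above those of T cells. The Ctsl interval there includes the T cell share. The cause of these changes in the calls was not tested. No paired analysis was possible because each group has 1 library. The number of cells limits the values of the 67 graft DCs, and Ctsk in VD-Mac macrophages rests on 13 UMIs.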

Other observations

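In the neutrophil precursor gate of the cultures (117 cells in Co-Mac and 216 in VD-Mac), 2 of 8 members were higher in VD-Mac and 0 lower. Of 7289 genes, 409 were higher and 443 lower. The 2 members were Ctsl, at 35.5 and 109 CPM, and Ctsh, at 64.2 and 166 CPM. Ctsc was at 126 and 168 CPM there and Ctss at 77.1 and 132 CPM, both on the other side of 0 from the macrophage and DC gates. All 8 measured members had a log2 ratio above 0, with a median of 0.68 beside −0.05 over all genes. The make-up of the gate differed too, with Elane at 1189 and 302 CPM, Plac8 at 1229.7 and 261 CPM, Trem2 at 17.9 and 197 CPM, and 29 and 40 doublet-like cells, and its part was not tested. The culture neutrophil gate (312 and 590 cells) carried Csf1r at 222 and 176 CPM beside S100a8 at 33825 and 23569.8 CPM, so it is not read as a neutrophil class its members' levels are not given, and it enters only the search for alike genes.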
